A study of Mus musculus with 288 samples.

Results

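The Period genes Per1, Per2 and Per3 were followed in 6 mouse tissues after intermittent hypoxia (IH), a model of the oxygen swings of obstructive sleep apnea. They were taken by symbol from expression tables of 35904 genes, and all 3 were present in every tissue. Male wild-type C57BL/6J mice, 8 weeks old, breathed either room air (normoxia) or air that cycled between 21% and 8% O2 in their light, resting phase for 7 days, and both treatments then spent 2 days in constant darkness in room air. Lung, liver, kidney, muscle, heart and cerebellum were taken on the second of those days at 8 time points 3 hours apart, from 1:30 to 22:30, so no mouse was in hypoxia or light when its tissues were collected. Each time point, treatment and tissue has 3 libraries, or 24 for each treatment of a tissue.

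The Period proteins are the negative arm of the circadian clock. CLOCK and BMAL1 (gene Arntl) activate Per and Cry genes through E-boxes, and PER and CRY proteins return to the nucleus to repress CLOCK and BMAL1, which closes a loop of about a day. Casein kinases and ubiquitin ligases set how long PER protein lasts. Per1 and Per2 also respond within hours to glucocorticoids, to cAMP signalling and to body temperature, which links the clocks of peripheral organs to the state of the body. Per3 is less important for the running of the loop and is a strong rhythmic output in most organs.

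Per1 lies on the plus strand of chromosome 11 (GRCm38, chr11:69095217-69109960) and Per2 on the minus strand of chromosome 1 (chr1:91415982-91459324), and no other annotated gene overlaps either. Per3 lies on the minus strand of chromosome 4 (chr4:151003652-151044665) and is overlapped on the same strand by Camta1, so reads from shared sequence could be split between these genes and the values of Per3 are less certain in that respect. The proximal promoters of Per1 and Per3 are shown with motifs through which clock factors act. The promoter set used held no entry for Per2, so its promoter was not searched. RefSeq (GRCm38.p6) gives 2 starts for Per1, and the 250 bases before each start are printed below 5′ to 3′ on the strand of the gene. Capitals mark matches, on either strand, to the E-box CACGTG, the E'-box CACGTT, the D-box TTATGNAA or the cAMP response element TGACGTCA, or to the palindromic glucocorticoid response element.

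Per1 first start, chr11:69098699-69098948: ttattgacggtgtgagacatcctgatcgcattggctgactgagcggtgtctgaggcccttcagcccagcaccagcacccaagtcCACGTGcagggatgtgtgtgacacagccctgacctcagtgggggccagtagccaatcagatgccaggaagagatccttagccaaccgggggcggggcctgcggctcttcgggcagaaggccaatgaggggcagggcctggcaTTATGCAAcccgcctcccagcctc

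Per1 second start, chr11:69099902-69100151: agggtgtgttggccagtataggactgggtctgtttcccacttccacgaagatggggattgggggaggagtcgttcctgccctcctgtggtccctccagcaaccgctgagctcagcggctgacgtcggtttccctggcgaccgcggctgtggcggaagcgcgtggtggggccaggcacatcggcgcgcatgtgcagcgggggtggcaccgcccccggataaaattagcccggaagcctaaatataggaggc

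Per3, chr4:151044666-151044915: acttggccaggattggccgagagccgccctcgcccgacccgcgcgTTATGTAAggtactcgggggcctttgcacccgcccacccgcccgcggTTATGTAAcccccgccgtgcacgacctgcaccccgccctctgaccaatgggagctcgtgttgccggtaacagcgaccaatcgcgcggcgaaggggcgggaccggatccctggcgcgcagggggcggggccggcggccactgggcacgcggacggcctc

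The first Per1 promoter held an E-box 166 to 161 bases before the start and a D-box 24 to 17 bases before it. The second held none of these motifs, and Per3 held a pair of D-boxes, starting 205 and 158 bases before its start. Among 32851 promoters of the same length, 6.02% held the E-box, 3.85% the E'-box, 3.07% the D-box, 1.55% the cAMP response element and 0.0304% the glucocorticoid response element. The core of the hypoxia response element was searched on both strands in a pair of forms. The form ACGTG lay inside the E-box of the first Per1 promoter, on both strands. The form GCGTG occurred in the second Per1 promoter, 92 bases before the start, and on the opposite strand in Per3, 15 bases before the start. These forms were present in 16.6% and 28.2% of all promoters.

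Expression was deposited as TPM, the share of each transcript pool that a gene takes after correction for length, and the files give no counts from which depth could be known. The 5 marker genes of each labelled tissue were highest in that tissue by summed median. Some libraries stood apart. The transcript Gm19220 took more than 100000 TPM in 18 libraries and 632361 TPM in the liver library of replicate 2 at 13:30 after IH, where Per2 was 0.400 TPM. The kidney normoxia libraries of replicate 1 at 1:30 and 4:30 were closer to each other than any other pair of a tissue was, with a median absolute log2 difference of 0.036, and their Per1 values were 7.63 and 7.67 TPM where the other 4 libraries of those times read 1.17 to 2.32 TPM. In the lung after IH, replicate 1 at 4:30 was nearest to a library of 7:30, and its Per1, Per2 and Per3 values of 45.4, 26.9 and 56.6 TPM were above those of replicates 2 and 3. The cerebellum IH libraries of replicates 1 and 3 at 1:30 had the highest and lowest size factors of that group, 1.69 and 0.507. Mean changes within a tissue that rest on these libraries are given with and without them. So are the acrophase lags and some rhythm results, but the rhythm calls of the cerebellum are given only with them. Comparisons between tissues were not run without them. The number of genes detected also differed between treatments, with medians of 22690.5 in normoxia and 24788.5 after IH in the lung, and 24768.5 and 21492 in the heart. The authors describe taking several organs from 3 mice per time point and treatment. The labels do not say which libraries of different tissues came from the same mouse. Comparisons between tissues take their libraries as independent, and p-values measure the spread between libraries.

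In the lung, all 3 Period genes were higher after IH (the plot of values by time). Per1 ranged from 4.20 to 58.7 TPM in normoxia, with a median of 14.9 TPM, and from 7.56 to 83.5 TPM after IH, with a median of 25.0 TPM. Per2 ranged from 2.97 to 25.6 TPM with a median of 7.32 TPM in normoxia, and from 4.55 to 50.4 TPM with a median of 23.3 TPM after IH. Per3 went from a range of 4.11 to 29.9 TPM and a median of 9.44 TPM to a range of 6.60 to 76.6 TPM and a median of 23.8 TPM. Over the whole day the ranges overlapped for each gene, since every gene cycled in both treatments.

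**Figure D1:**
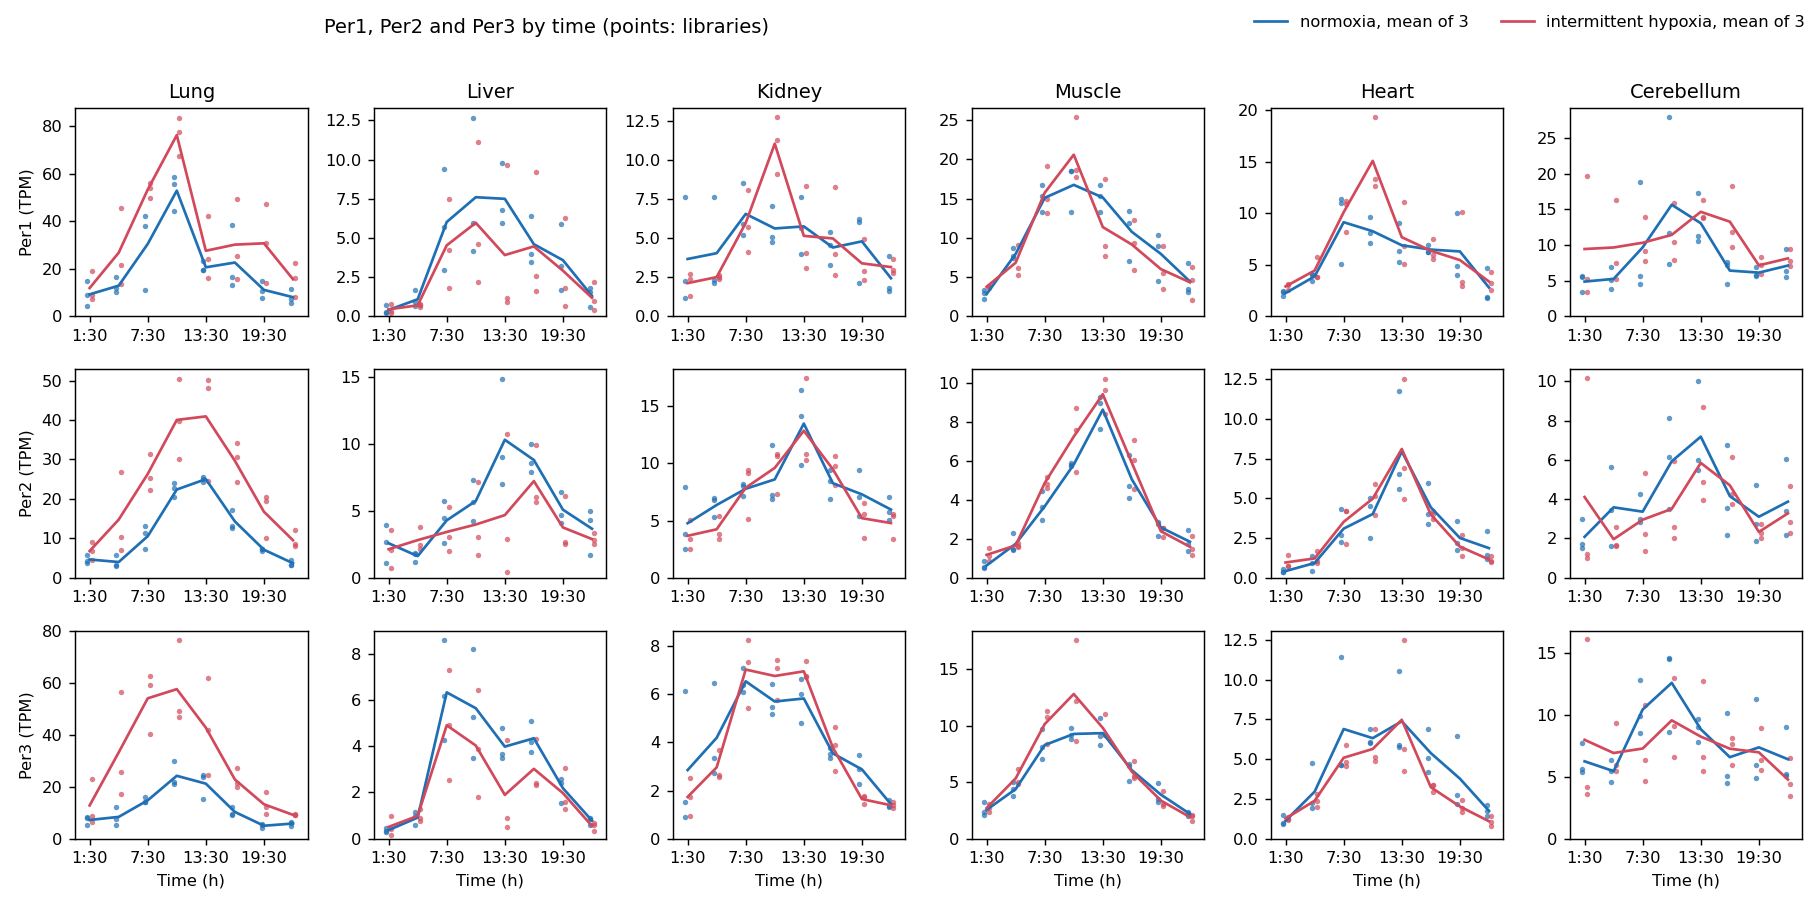
TPM of Per1, Per2 and Per3 (rows) against time of day in 6 tissues (columns), with a point for each library and lines through the means of 3 libraries in normoxia (blue) and after IH (red). In the lung the IH line lay above the normoxia line at most times, in the liver it mostly lay below, and in the other tissues the lines crossed or lay close together.

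The values of single libraries are given for the rise to the peak, at 7:30 to 13:30. At 7:30, Per3 read 14.3, 16.0 and 14.2 TPM in normoxia and 62.9, 59.3 and 40.2 TPM after IH. At 10:30 it read 21.0, 21.9 and 29.9 TPM against 76.6, 47.0 and 49.4 TPM. All IH libraries were above all normoxia libraries at both times. Per2, the loss of which shortens or ends free-running rhythms in mice, read 22.6, 24.1 and 20.3 TPM at 10:30 in normoxia and 50.4, 30.0 and 39.6 TPM after IH. At its peak, at 13:30, Per2 read 25.0, 25.6 and 24.4 TPM in normoxia against 50.0, 24.5 and 48.2 TPM after IH, so here replicate 2 lay inside the range of normoxia. Per1, an early responder to light and hormones, read 58.7, 55.6 and 44.3 TPM at its peak at 10:30 and 77.5, 67.6 and 83.5 TPM after IH, with no overlap. At 1:30 the treatments were close, with Per1 at 14.8, 4.20 and 8.90 TPM in normoxia and 7.56, 19.3 and 9.02 TPM after IH. After libraries were scaled to a common median, all 3 IH libraries lay above all 3 normoxia libraries at 1 of 8 time points for Per1, at 6 for Per2 and at 5 for Per3. In the lung this occurred for 14.6% of all combinations of gene and time point. The largest log2 difference between the means of a time point was 0.95 at 19:30 for Per1, and 1.37 for Per2 and 1.58 for Per3, both at 4:30, the time of the IH library that stood apart.

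Averaged over time points, Per3 rose by a log2 change of 0.88 ± 0.13 (SE) in the lung (limma, adjusted p = 1.8e-07, 24 libraries per treatment), Per2 by 0.74 ± 0.11 (adjusted p = 2.4e-07) and Per1 by 0.42 ± 0.16 (adjusted p = 0.016). These values are on the scale of log2(TPM + 0.5), and p-values were adjusted over the 15426 genes tested in the lung. The median of all genes on this scale was −0.08. On deposited TPM, where that median was 0.21, the changes were 1.17 for Per3, 1.03 for Per2 and 0.71 for Per1, and all 3 passed. They also passed without the IH library of replicate 1 at 4:30, at 0.82, 0.67 and 0.37. Of all lung genes, 29.3% were higher at an adjusted p of 0.05, and 9.11% were also higher by 1.5-fold, as Per2 and Per3 were. In either direction, 71.4% of lung genes passed. The mean over the 3 libraries of a time point was higher after IH at 7 of 8 time points for Per1 and at 8 of 8 for Per2 and Per3. In bulk tissue, fewer cells of a type and less RNA per cell cannot be told apart.

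The increase of Per1 depended on single replicate numbers. It was 0.15 on the log2 scale without replicate 3 (adjusted p = 0.43) and 0.43 without replicate 2 (adjusted p = 0.076), and within the numbers alone it was −0.08, 0.35 and 0.94. Without the time point 19:30 it was 0.34 (adjusted p = 0.060). Per2 and Per3 were higher within each number, by 0.92, 0.43 and 0.84 for Per2 and by 1.32, 0.79 and 0.50 for Per3. When the number of genes detected was added to the model, the changes were 0.39 for Per1 (adjusted p = 0.19), 0.35 for Per2 (adjusted p = 0.070) and 0.11 for Per3 (adjusted p = 0.57), and none passed. The number of genes detected and the treatment moved together in the lung and cannot be told apart there. The summed level of 5 heart markers in the lung libraries had a median of 194 TPM in normoxia (115 to 475 TPM) and of 358 TPM after IH (134 to 552 TPM), and the part of these transcripts in the Period values was not tested.

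**Figure D2:**
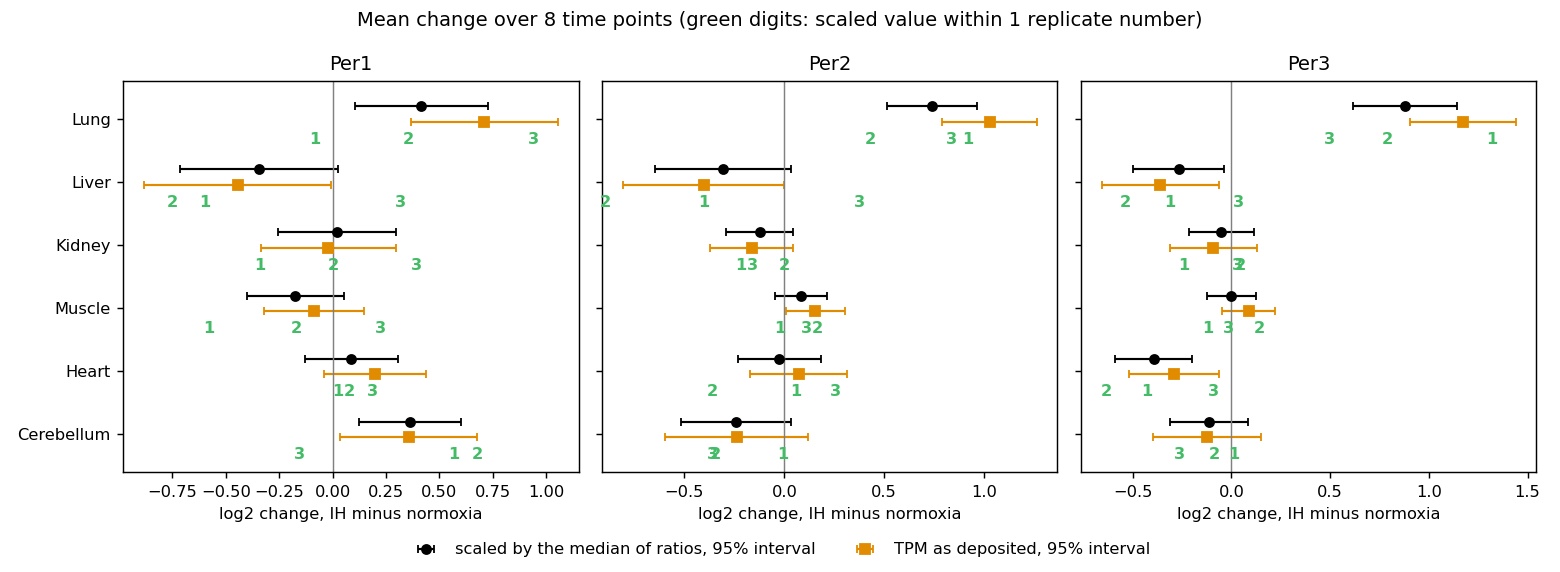
Log2 change of each Period gene after IH, averaged over 8 time points, in 6 tissues, with 95% intervals for scaled TPM (black circles) and TPM as deposited (orange squares). Green digits give the scaled change within replicate numbers 1, 2 and 3. In the lung all intervals lie above 0, and the digits of Per1 spread from −0.08 to 0.94.

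Outside the lung, 2 of 15 combinations of gene and tissue passed. In the heart, Per3 ranged from 0.922 to 11.4 TPM in normoxia (median 4.62 TPM) and from 0.788 to 12.5 TPM after IH (median 2.88 TPM). At 16:30 it read 6.91, 5.07 and 4.17 TPM in normoxia and 3.38, 2.94 and 3.40 TPM after IH, without overlap. It fell by 0.39 ± 0.097 on the log2 scale (limma, adjusted p = 0.0011), where 17.4% of heart genes were lower and 28.5% higher at that threshold. The scaled mean was lower after IH at 8 of 8 time points, and all IH libraries lay below all normoxia libraries at 3, where 8.59% of combinations of gene and time point did so in the heart. On the log2 scale the difference at 7:30 was 0.07. On deposited TPM the count without overlap was 1, and the mean at 13:30 was 7.48 TPM after IH and 7.38 TPM in normoxia. Without replicate 2 the mean log2 change of Per3 was −0.27 and no longer passed (adjusted p = 0.065), nor did it with treatment as the only term (adjusted p = 0.17). Per1 and Per2 in the heart gave 0.09 ± 0.11 (adjusted p = 0.53) and −0.03 ± 0.10 (adjusted p = 0.86).

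In the cerebellum, Per1 ranged from 3.46 to 27.9 TPM in normoxia (median 6.61 TPM) and from 3.45 to 19.6 TPM after IH (median 9.33 TPM). At 16:30 it read 7.17, 4.55 and 7.57 TPM in normoxia and 18.3, 11.8 and 9.77 TPM after IH, while at 10:30 it read 7.31, 11.7 and 27.9 TPM against 7.89, 15.9 and 10.4 TPM. Per1 rose by 0.36 ± 0.12 on the log2 scale (adjusted p = 0.030), where 10.6% of cerebellar genes were higher, and its mean was higher at 7 of 8 time points. The call was lost without replicate 1 (0.26, adjusted p = 0.37), without replicate 2 (0.21, adjusted p = 0.64), on deposited TPM (0.36, adjusted p = 0.16), with treatment as the only term (adjusted p = 0.083), without a filter on low genes (adjusted p = 0.063), with genes detected as a term (0.20, adjusted p = 0.23), and without 1:30, 4:30, 7:30 or 16:30 (0.29 to 0.34). Within replicate 3 alone the value was −0.15, and without the IH library of replicate 1 or 3 at 1:30 it was 0.33 or 0.37 and passed. Per2 and Per3 gave −0.24 ± 0.14 and −0.11 ± 0.098 and did not pass.

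In the liver, all 3 Period genes had a lower mean after IH and none passed. Per1 gave −0.34 ± 0.18 (adjusted p = 0.16), Per2 −0.31 ± 0.17 (adjusted p = 0.17) and Per3 −0.27 ± 0.11 (adjusted p = 0.078), where 25.7% of liver genes passed in either direction. At 13:30, Per1 read 5.94, 6.79 and 9.76 TPM in normoxia and 0.922, 1.16 and 9.66 TPM after IH, so replicates 1 and 2 read lower than replicate 3. Replicate 2 is the library in which Gm19220 took 632361 TPM, and deposited TPM of its other genes are lowered by that share. After scaling, replicates 1, 2 and 3 read 1.63, 2.20 and 8.84. Without replicate 2 at 13:30 the mean changes were −0.30 for Per1, −0.19 for Per2 and −0.22 for Per3, and none passed. Within replicate 3 alone the changes were 0.32, 0.37 and 0.04, and without replicate 3 they were −0.67, −0.64 and −0.42, and all 3 passed. The summed level of 5 liver markers in the liver libraries had a median of 58350 TPM in normoxia (49063 to 88131 TPM) and of 39517 TPM after IH (1144 to 66502 TPM). That of 5 kidney markers went from 3.83 TPM (0.786 to 121 TPM) to 90.0 TPM (41.3 to 445 TPM) and that of 5 heart markers from 13.2 TPM (4.00 to 64.5 TPM) to 38.7 TPM (25.9 to 7385 TPM). The part of these differences in the Period values of the liver was not tested. In the kidney the changes lay between −0.12 and 0.02, and in the muscle between −0.17 and 0.08, and none passed, where 9.22% of kidney genes were higher and 13.3% lower, and 6.32% of muscle genes were higher and 5.67% lower. Without the near-identical normoxia libraries of replicate 1, the kidney changes were 0.13, −0.10 and 0.03, and none passed. Muscle Per1 passed without replicate 3 (−0.37, adjusted p = 0.048) and was 0.03 without replicate 1. The 95% intervals around these means are drawn in the plot of log2 changes.

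The larger change of the lung was tested against each other tissue with an interaction of treatment and tissue, which takes libraries of both tissues as independent. For Per3 the change in the lung exceeded that in each of the 5 tissues, by 0.83 ± 0.14 against the muscle to 1.23 ± 0.17 against the heart (adjusted p between 1.3e-09 and 1.6e-06). For Per2 the differences ran from 0.59 ± 0.13 against the muscle to 0.93 ± 0.21 against the liver, and all 5 passed. For Per1 only the differences from the liver (0.68 ± 0.25, adjusted p = 0.016) and the muscle (0.55 ± 0.20, adjusted p = 0.013) passed. The other 3 were 0.33 from the kidney, 0.27 from the heart and −0.03 from the cerebellum, and without replicate 3 the difference from the cerebellum passed in the opposite direction (−0.58, adjusted p = 0.015). With genes detected as a term, both Per1 calls were lost (0.54 from the liver, adjusted p = 0.13, and 0.46 from the muscle, adjusted p = 0.073), and so was that of Per3 from the cerebellum (0.34, adjusted p = 0.16). In that model the other Per3 differences were 0.34 from the kidney, 0.48 from the liver, 0.56 from the muscle and 0.70 from the heart, and those of Per2 ran from 0.46 from the muscle to 0.80 from the cerebellum, and these 9 passed. The share of all genes that passed was 67.6% for the heart, 65.7% for the kidney, 60.2% for the muscle, 58.0% for the liver and 55.0% for the cerebellum.

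Ratios between Period genes of the same library depend little on scaling, and 7 of 18 had a 95% interval of the difference after IH that excluded 0. These intervals are a description. They were not adjusted for their number, and the share of other pairs of genes with such an interval was not computed. The ratios of a tissue share genes and are not independent. In the lung the log2 ratio of Per3 to Per1 went from −0.64 in normoxia to −0.18 after IH, a difference of 0.46 (95% interval 0.08 to 0.84), but it was 1.40, 0.44 and −0.45 within replicates 1, 2 and 3. The ratio of Per2 to Per1 differed by 0.32 in the lung (0.02 to 0.62) and by 0.24 in the muscle (0.03 to 0.45), and in both it was below 0 within replicate 3. In the heart Per3 was lower after IH relative to both partners, with differences of −0.49 against Per1 (−0.71 to −0.27) and −0.36 against Per2 (−0.51 to −0.21), in each replicate number. In the cerebellum Per1 was higher relative to both, since the ratio of Per3 to Per1 differed by −0.48 (−0.75 to −0.21) and that of Per2 to Per1 by −0.59 (−0.86 to −0.32), again in each replicate number, and the ratio of Per3 to Per2 differed by 0.11 (−0.12 to 0.34).

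The daily rhythm was then examined. With a rank test and a cosine test at 24 hours combined, 29 of the 36 sets of gene, tissue and treatment were rhythmic. Both tests read the same values, so the combined p is too small. Over 12 alternatives the count ran from 21 to 30 of 36. Of the 12 sets of tissue and treatment, 6 to 11 were then rhythmic for Per1, 8 to 10 for Per2 and 7 to 10 for Per3. In lung, muscle and heart all 3 genes were rhythmic in both treatments, where 9.42% (normoxia) and 11.6% (IH) of lung genes, 3.45% and 7.75% of muscle genes and 0.843% and 4.10% of heart genes were rhythmic. In the liver, where 15.5% and 8.33% of genes were rhythmic, Per2 was the exception, with an adjusted p of 9.4e-06 in normoxia and 0.48 after IH. Its time course after IH held the library with the very high Gm19220 value, and without that library the adjusted p was 0.066. In the kidney (16.3% and 3.60%) Per1 did not pass in normoxia (adjusted p = 0.16). It passed when the near-identical libraries of replicate 1 at 1:30 and 4:30 were left out. In the cerebellum only Per1 in normoxia passed (adjusted p = 0.044), with Per2 at 0.053 and Per3 at 0.067, and after IH none did, where 4.76% and 0.0421% of genes were rhythmic. Whether the rhythm was lost there after IH was not shown by these calls.

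Per2 had the latest fitted peak. In the lung in normoxia the acrophase, the time of the peak of the fitted cosine on the log2 scale, was 10.8 h for Per3, 11.1 h for Per1 and 12.8 h for Per2 (the plot of acrophases). In the liver these times were 12.4, 12.9 and 14.8 h, and in the muscle 11.3, 11.5 and 13.0 h. Per2 had the latest acrophase in 12 of 12 sets of tissue and treatment. It followed Per3 by 1.41 to 3.63 h, with a 95% interval above 0 in 11 sets and the exception of the cerebellum in normoxia (2.08 h, −0.69 to 4.85 h). Without the libraries that stood apart the lag was 1.41 to 2.62 h, again with 11 intervals above 0. Over 5 alternatives this count ran from 8, without replicate 1, to 11. The 12 sets include the liver after IH and the cerebellum in both treatments, where Per2 did not pass as rhythmic. Per2 followed Per1 with an interval above 0 in 8 of 12 sets, the exceptions being the liver after IH, the kidney in both treatments and the cerebellum in normoxia. Without replicate 1 that count was 3, and Per2 of the cerebellum in normoxia then came before Per1 (−0.36 h, −3.17 to 2.46 h). Without replicate 3 it was 5. Per1 and Per3 were not separated, since the interval of their difference held 0 in 12 of 12 sets.

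**Figure D3:**
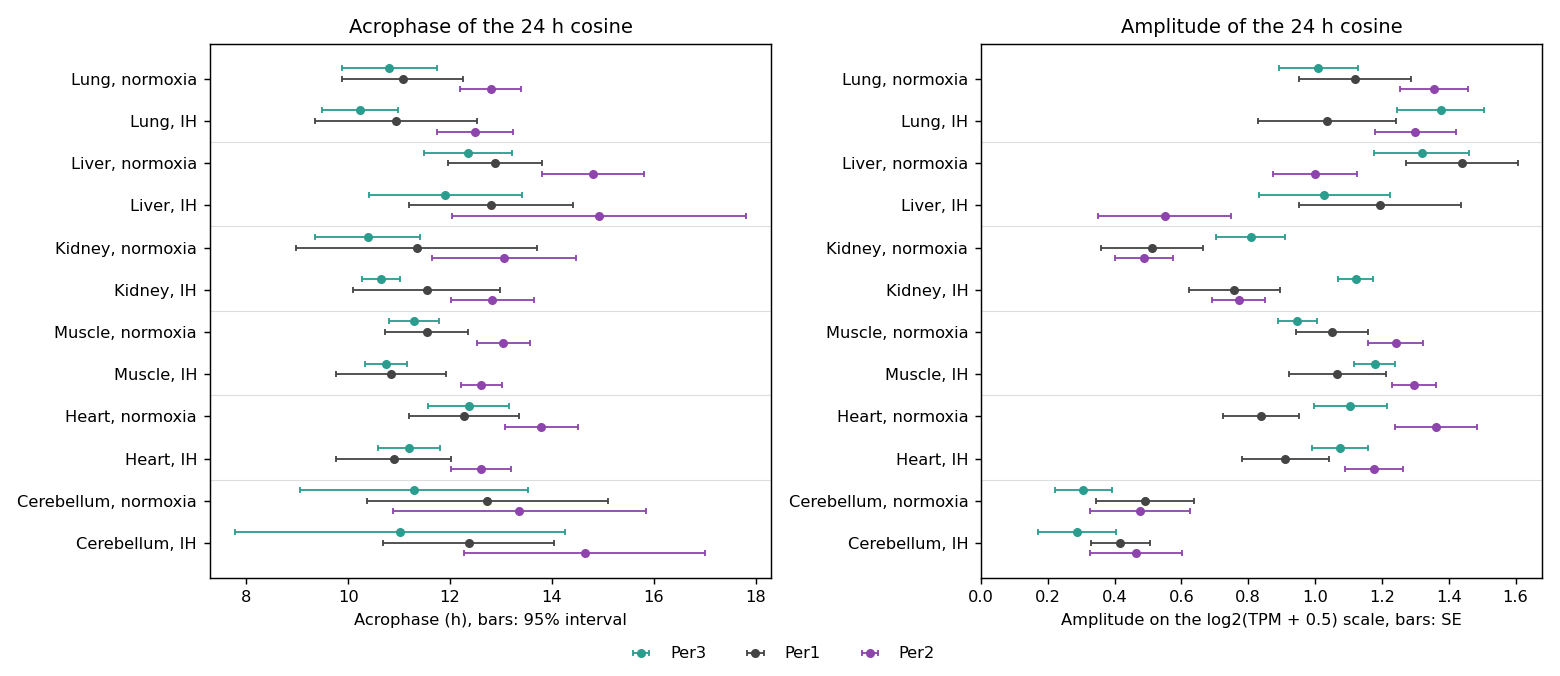
Acrophase in hours with its 95% interval (left) and amplitude on the log2(TPM + 0.5) scale with its SE (right) of a 24-hour cosine for Per3, Per1 and Per2 in 12 sets of tissue and treatment. Per2 is the latest in every set, and the amplitudes of the cerebellum lie between 0.29 and 0.49.

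Amplitudes on this scale were between 1.01 and 1.35 in the lung in normoxia and between 0.49 and 0.81 in the kidney. The cerebellum was lowest, with 0.29 to 0.49 over both treatments. In normoxia the rhythms of 2 tissues were compared for each gene over 15 pairs of tissues, and 22 of 45 tests passed, 10 for Per2, 8 for Per3 and 4 for Per1. On deposited TPM 12 passed. In the 3 pairs among lung, muscle and heart, 0 of 9 tests passed by limma, and 1, Per3 between lung and heart, had an unadjusted p under 0.05 (0.012), where 0.0308% to 0.369% of genes differed. Liver and cerebellum differed for all 3 genes (adjusted p of 5.6e-05 for Per1, 0.0034 for Per2 and 9.8e-10 for Per3), where 25.1% of genes differed, and liver and kidney also did for all 3, where 6.56% of genes did. In the other pairs with the liver, 5.99% of genes differed for the lung, where all 3 Period genes passed, 7.16% for the muscle, where Per2 and Per3 passed, and 7.07% for the heart, where Per1 passed. Per2 of the kidney differed from that of lung, muscle and heart, where 0.379%, 0.420% and 0.492% of genes did, while Per1 and Per3 did not pass. Without replicate 1, the number of the near-identical kidney libraries, only the Per2 difference from the heart passed by limma (adjusted p = 0.012). Those from the lung (0.83) and the muscle (0.25) did not. The difference from the muscle also failed on deposited TPM (0.13) and without replicate 2 (0.19) or 3 (0.12). Against the cerebellum, Per2 and Per3 passed for the lung, the muscle and the heart and Per3 alone for the kidney, where 5.91%, 10.6%, 8.17% and 12.6% of genes differed.

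Differences of the rhythm after IH were tested next. In cosine fits to deposited TPM, the MESOR, the mean level of the cosine, went from 21.0 to 34.1 TPM for Per1 (adjusted p = 0.0062), from 11.4 to 23.1 TPM for Per2 (adjusted p = 5.6e-08) and from 12.2 to 30.8 TPM for Per3 (adjusted p = 3.7e-08), in a tissue where the MESOR of 60.1% of compared genes differed. The amplitude of Per3 went from 8.89 to 25.0 TPM (adjusted p = 0.0096), one of 14 genes of 1142 compared in the lung (1.23%). The amplitude of Per2 went from 10.5 to 17.4 TPM (adjusted p = 0.14) and that of Per1 from 16.6 to 21.9 TPM (adjusted p = 0.69), and neither passed. On the log2 scale, where a rhythm multiplied as a whole keeps its amplitude, the amplitude went from 1.01 to 1.38 for Per3, which no longer passed (adjusted p = 0.60), from 1.35 to 1.30 for Per2 and from 1.12 to 1.04 for Per1. The Per3 amplitude also failed on scaled TPM (adjusted p = 0.059), without replicate 1 (0.073) and without replicate 2 (0.056), and passed without the lung library of replicate 1 at 4:30 (0.0050). The MESOR difference of Per1, 13.0 TPM, was 7.44 TPM without replicate 3 (adjusted p = 0.17) and 7.61 on scaled TPM (adjusted p = 0.083).

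No acrophase of a Period gene differed by the 4 hours set as the minimum. In the lung the shifts after IH on deposited TPM were −0.30 h for Per1, −0.29 h for Per2 and −1.22 h for Per3 (95% interval −3.51 to 1.07 h). Over 6 tissues they ran from −1.22 to 1.83 h, and the latter, for Per2 in the cerebellum, had an interval from −3.59 to 7.25 h. In the heart the shifts were −0.91 h for Per1, −0.86 h for Per2 and −0.47 h for Per3, and −0.97, −0.99 and −0.85 h on the log2 scale, where none passed (adjusted p of 0.80, 0.59 and 0.69). A difference of the IH effect between time points was not shown by a test of the interaction of treatment with time. By limma, 0 of 18 combinations passed at the adjusted threshold. The unadjusted p was under 0.05 in 1 of 18, Per2 in the heart (0.043), and was 0.061 for Per3 in the lung. Alternatives gave others under 0.05, among them 0.0047 for heart Per1 without replicate 3. Kidney Per3 gave 0.025 without the near-identical libraries. None of these passed after adjustment. In the heart 0.00783% of genes passed that test, and in the other 5 tissues 0 did. With so few genes passing, the test could not show that the effect was equal at all times.

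Among tissues in normoxia, the lung held the highest mean TPM of each Period gene. The order for Per1 was lung (21.0), muscle (10.1), cerebellum (8.53), heart (5.77), kidney (4.68) and liver (4.02). For Per2 it was lung (11.4), kidney (7.81), liver (5.26), cerebellum (4.16), muscle (3.74) and heart (3.15). For Per3 it was lung (12.2), cerebellum (8.01), muscle (5.75), heart (4.45), kidney (4.11) and liver (3.07). Within a time point the SD of these normoxia values was 8.67 TPM for Per1, 1.68 TPM for Per2 and 2.94 TPM for Per3 in the lung.

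Only some neighbours in these orders differed, and the orders depended on how tissues were scaled to each other. With scaling over all normoxia libraries together, 5 of 15 neighbouring pairs passed. For Per1 these were muscle over cerebellum (log2 difference 0.73) and heart over kidney (0.72). For Per2 liver was over cerebellum (1.28), and lung against kidney passed in the opposite direction to TPM (−0.37, adjusted p = 0.0095). For Per3 heart was over kidney (0.46). On deposited TPM 8 other pairs of the 15 passed and none of these 5 did. Muscle over cerebellum was then 0.20 and heart over kidney 0.26 for Per1, liver over cerebellum 0.23 and lung over kidney 0.27 for Per2, and heart over kidney 0.02 for Per3. For all of these neighbours, the share of all genes that differed was 81.0% for lung and muscle, 82.0% for lung and kidney, 90.0% for lung and cerebellum, 87.4% for muscle and cerebellum, 87.1% for cerebellum and heart, 83.5% for heart and kidney, 76.1% for kidney and liver, 89.3% for liver and cerebellum and 69.3% for muscle and heart.

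The other clock genes moved in both directions in the lung, where 29.3% of all genes were higher and 42.1% lower. Among the partners that repress with PER, Ciart rose by 1.07 and Cry2 by 0.28 on the log2 scale and Cry1 fell by 0.26, so 3 of 3 passed in different directions (list median 0.28). Of the activators Arntl, Clock and Npas2, Clock rose by 0.18 and 2 did not pass, and the list median was −0.17. Among nuclear receptors that act on Arntl, Rora rose by 0.42, Nr1d1 fell by 0.45 and 2 of 4 did not pass (median 0.11). Among the PAR bZIP factors and Nfil3, which share the D-box printed above for Per1 and Per3, Tef rose by 0.62, Nfil3 fell by 0.26, and Dbp at −0.37 (adjusted p = 0.052) and Hlf at 0.07 did not pass (median −0.10). The casein kinase genes Csnk1d and Csnk1e, whose products phosphorylate PER, rose by 0.24 and 0.16, and Fbxw11, which encodes a ubiquitin ligase subunit that acts on PER, fell by 0.19. Of the DEC repressors, Bhlhe41 rose by 0.24 and Bhlhe40 did not pass (median 0.03).

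Targets of signals that also act on Per transcription were counted in the same way. In the lung, glucocorticoid targets gave 2 higher (Zbtb16 by 0.66, Pdk4 by 0.34) and 2 lower (Sgk1 by 0.34, Tsc22d3 by 0.25) of 6, with Fkbp5 at 0.32 (adjusted p = 0.066) not passing and a list median of 0.13. Of 6 heat shock factor targets 0 were higher and 3 lower, with Hsp90aa1 at −0.75 and a median of −0.34, and of 5 immediate early genes 0 were higher and 2 lower, Junb and Egr1, with a median of −0.07. Rbm3, 1 of the 2 cold-inducible genes, fell by 0.49 (median −0.12). In the heart, where 28.5% of all genes were higher and 17.4% lower, both cold-inducible genes, Cirbp and Rbm3, fell by 0.40 and 0.54. Of 6 heat shock factor targets 3 rose (Hspa1a by 0.66, Hspa1b by 0.68 and Hsp90aa1 by 0.34), 2 of 6 glucocorticoid targets rose (Fkbp5 and Pdk4), and 0 of 4 immediate early genes passed by limma. In the cerebellum, where 10.6% of all genes were higher, 1 of 5 immediate early genes rose (Junb, by 0.59) and 4 did not pass, and of the 2 cold-inducible genes Cirbp rose by 0.37 and Rbm3, at −0.23, did not pass. In the muscle, where 6.32% of all genes were higher, 3 of 6 glucocorticoid targets rose (Fkbp5, Tsc22d3 and Zbtb16). In the liver (25.7% of genes in either direction) and the kidney (9.22% higher and 13.3% lower) 0 of 6 glucocorticoid targets passed by limma. Of heat shock factor targets, 2 of 5 were lower in the liver and 1 of 6 was higher in the kidney. In the cerebellum 1 of 6 was lower, and in the muscle 0 of 6 passed by limma. The part of these signals in the Period values was not tested.

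The genes whose time course was most like each Period gene were sought over 96 means of tissue, treatment and time point, among 9876 genes expressed in all 6 tissues. The likeness is a description, since the points share libraries. Per1 was most like Per3 (r = 0.90), Tef (0.88), Usp2 (0.84), Wee1 (0.83) and Ciart (0.83). Per3 was most like Tef (0.94), Per1 (0.90), Dbp (0.85), Tspan4 (0.84) and Nr1d2 (0.84). Per2 was most like Cys1 (0.89), Tspan4 (0.86), Hlf (0.83), Wee1 (0.81) and Maco1 (0.80), of which Tspan4 is also among the 5 of Per3 and Wee1 among those of Per1, and its r was 0.78 with both Per1 and Per3. The activators ran opposite, with r between Npas2 and Per1, Per2 and Per3 of −0.81, −0.73 and −0.93, and for Arntl of −0.75, −0.63 and −0.88. By level over the 12 means of tissue and treatment, the closest were Edc4, Kdm4b and Gtpbp1 for Per1 (r = 0.995 for Edc4), Tubgcp4, Ctns and Pcsk7 for Per2 and Clk2, Gga3 and Smg1 for Per3.

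Libraries of the same time point, treatment and replicate number were compared across tissues, a comparison chosen after values had been seen and given as a description, since libraries of different organs may come from 1 mouse. For Per1, the library that was high among its 3 was often the same number in different organs. At 19:30 after IH, replicate 3 had the highest Per1 in 6 of 6 tissues, with 47.3 TPM in the lung against 14.3 and 30.7 TPM, and 6.29 TPM in the liver against 1.79 and 0.684 TPM. At 13:30 and 16:30 after IH the same was so in 5 of 6 tissues, and at 22:30 in normoxia replicate 1 was highest in 6 of 6. Per2 was highest in replicate 2 at 13:30 and in replicate 1 at 16:30 in normoxia in 6 of 6 tissues each, and in replicate 3 at 19:30 after IH in 6 of 6. For Per3 the count did not exceed 5 of 6 at any time. The counts named for Per1 and Per2 are among the highest over time points and treatments. At 4:30 and 10:30 after IH, each replicate number had the highest Per2 in 2 of 6 tissues. The share of all genes with such counts was not computed.

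**Figure D4:**
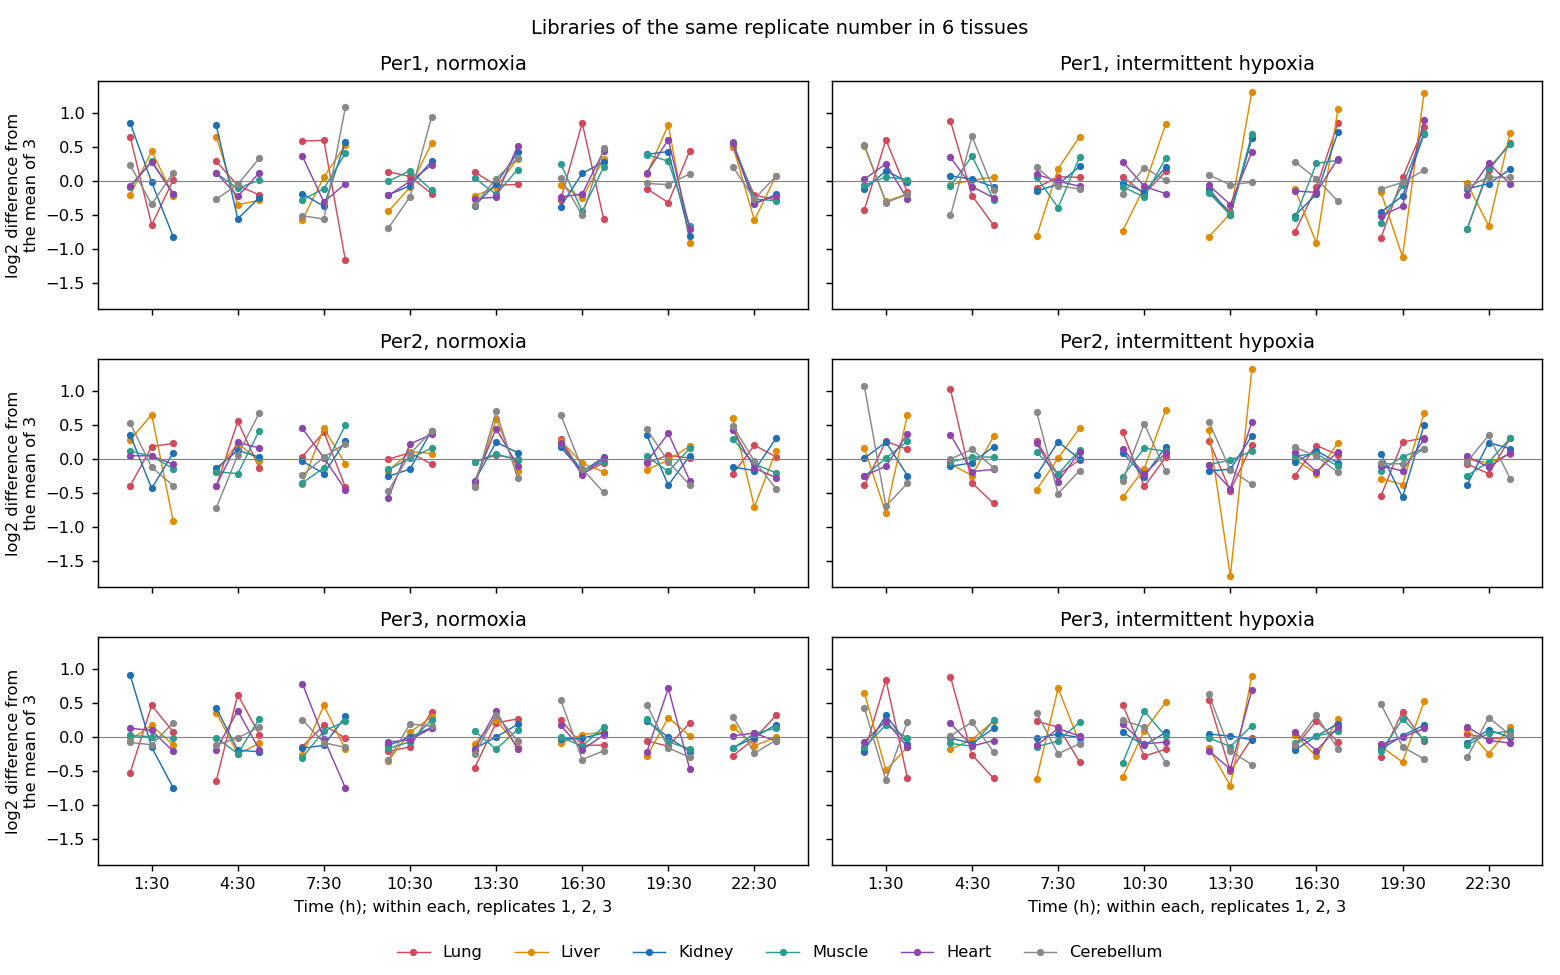
Log2 difference of each scaled library from the mean of its 3 replicates, for each Period gene (rows) in normoxia and after IH (columns). Lines join replicates 1, 2 and 3 at each time point, with a colour for each of 6 tissues. Lines of Per1 at 13:30 to 19:30 after IH are mostly highest at replicate 3, and those of Per3 scatter around 0.

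Across the 15 pairs of tissues, the median r of these deviations over 48 libraries was 0.285 for Per1, with 14 of 15 pairs above 0, and 0.193 for Per2, with 12 of 15. For Per3 it was −0.054, with 6 of 15. The median of all 9876 genes was 0.012, and Per1 had rank 54, Per2 rank 219 and Per3 rank 8157 among them. Glucocorticoid targets gave 0.402 (Tsc22d3), 0.351 (Fkbp5), 0.319 (Zbtb16), 0.219 (Dusp1), 0.118 (Sgk1) and −0.010 (Pdk4). Heat shock factor targets gave 0.593 (Hspa1b), 0.356 (Hsph1), 0.340 (Dnajb1), 0.152 (Hsp90aa1) and 0.036 (Hspa8). The cold-inducible genes gave 0.257 (Cirbp) and 0.188 (Rbm3), and the immediate early genes 0.122 (Junb) and 0.004 (Egr1). Other clock genes ran from −0.038 (Clock) to 0.219 (Dbp), with Cry1 at 0.170. The source of the shared deviations was not tested. Replicate 3, within which the lung Per1 change was 0.94, was the number with the highest Per1 in 5, 5 and 6 of 6 tissues at 13:30, 16:30 and 19:30 after IH, and in 5, 4 and 2 of 6 at those times in normoxia.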

How the data were processed

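RNA was measured in poly(A)-selected, strand-specific libraries of 6 tissues, 48 per tissue. The authors quantified them with Kallisto against Ensembl release 102 (genome label mm10), and the deposited values are TPM, transcript abundances scaled to a common sum per library. They hold no counts, so depth and the precision it gives are unknown, and DESeq2, which the authors used on counts, was not applied.

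Each library was divided by its median-of-ratios size factor, and log2(TPM + 0.5) was fitted with limma 3.58.1 in R 4.3.3 with terms for time point and treatment and an intensity trend. Genes averaging 1 TPM or more in the tissue entered, with Benjamini-Hochberg adjustment over all of them. Genes passed at an adjusted p of 0.05, and were called changed with a 1.5-fold change in addition. Rhythm was tested in genes reaching 1 TPM by JTK and Lomb-Scargle tests at 24 h, combined by the Fisher method, and differences of rhythm by cosine fits as in CircaCompare, both re-implemented in Python 3.11.15 with numpy 2.4.6, scipy 1.17.1 and pandas 2.3.3 and tested on simulated data. CircaCompare values were adjusted over genes rhythmic in at least 1 treatment with a cosine p of 0.05 or less in both, and a changed acrophase needed 4 h. Tests were two-sided.

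The genes named are the Period genes, clock genes by role, targets of signals known to act on Period genes (those named passed the test, or are given as not passing) and, per Period gene, the 5 closest by time course and the 3 closest by level. The members and lists were chosen with earlier results of these data known. The list of kinases and ubiquitin ligase subunits is not reported here as a whole. Marker lists of 5 genes per tissue checked the labels. Positions are from GENCODE release M21. The labels do not say that replicate numbers pair normoxia with IH libraries. Deviations of same-numbered libraries correlated above 0.1 in 5 of 24 pairs in the lung and at most 16 of 24, in the liver. The median r was 0.22 for the same number and −0.12 for other numbers in the liver, 0.10 and −0.088 in the muscle, and −0.14 and 0.063 in the lung. In kidney, heart and cerebellum the median for the same number lay between −0.072 and 0.032. Alternatives tried were another pseudocount, filter or scaling, treatment alone, a replicate block, a term for genes detected, each rhythm test alone, and leaving out replicate numbers, time points or libraries that stood apart.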

Additional observations from a re-analysis of the deposited data

Results flagged for a closer look

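The change after IH in the lung differed from that in another tissue in 12 of 15 tests of an interaction of treatment with tissue (limma). Of all genes, 55.0% (against the cerebellum) to 67.6% (against the heart) passed the same tests. The differences, lung minus the other tissue, on the log2 scale with SE were as follows. For Per1 they were 0.68 ± 0.25 from the liver and 0.55 ± 0.20 from the muscle. For Per2 they were 0.93 ± 0.21 from the liver, 0.80 ± 0.14 from the kidney, 0.59 ± 0.13 from the muscle, 0.69 ± 0.16 from the heart and 0.90 ± 0.18 from the cerebellum. For Per3 they were 1.05 ± 0.18 from the liver, 0.87 ± 0.15 from the kidney, 0.83 ± 0.14 from the muscle, 1.23 ± 0.17 from the heart and 0.91 ± 0.16 from the cerebellum. With a term for genes detected 9 of 15 passed, and without replicate 2 10 of 15. Groups of 3 libraries were not tested for outliers.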

How the results depend on the processing

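Depth is unknown, so the precision that sequencing sets on low values, such as Per1 in the liver at night, could not be given, and scaling between tissues and between treatments of the lung rests on the assumption that most genes keep their level. With this scaling, 71.4% of lung genes passed after IH, and 69.3% to 90.0% of genes differed between neighbouring tissues. Lung size factors ran from 0.725 to 0.992 in normoxia and from 0.891 to 1.36 after IH. The number of combinations of Period gene and tissue that passed in mean level, 5 of 18, was 2 with treatment as the only term, 1 with a term for genes detected, 3 in replicate 3 alone, and 2 to 8 when a replicate number or time point was left out. The replicate block left it at 5, changed no call of a mean, and moved the lung Per3 amplitude past the threshold (adjusted p = 0.067). The labels do not say that the numbers pair the samples.

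In the lung, the Per1 change was 0.42 with treatment alone, 0.39 with genes detected, −0.083 and 0.35 in replicates 1 and 2 alone, and 0.15 to 0.66 with a replicate number or time point left out. With genes detected, Per2 was 0.35 and Per3 0.11. Changes that reversed elsewhere were small or in 1 replicate number. In replicate 1 alone they were −0.34 for kidney Per1, −0.024 for muscle Per2, −0.12 for muscle Per3, 0.059 for heart Per2 and 0.013 for cerebellum Per3. In replicate 2 alone kidney Per2 was 0.00067 and kidney Per3 0.047. In replicate 3 alone liver Per1, Per2 and Per3 were 0.32, 0.37 and 0.039, kidney Per3 0.033, muscle Per1 0.23, muscle Per3 −0.016, heart Per2 0.26 and cerebellum Per1 −0.15. On deposited TPM kidney Per1 was −0.020 and heart Per2 0.071. With a pseudocount of 0.1 muscle Per3 was −0.0074 and heart Per2 0.0015, and with genes detected muscle Per3 was −0.0064. Without Gm19220, kidney Per1 was −0.0039 and heart Per2 0.056, and without the normoxia libraries of replicate 1 at 1:30 and 4:30 kidney Per3 was 0.032. With a replicate number or time point left out, the ranges were −0.17 to 0.20 for kidney Per1, −0.10 to 0.042 for kidney Per3, −0.37 to 0.026 for muscle Per1, −0.069 to 0.057 for muscle Per3 and −0.16 to 0.15 for heart Per2.

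The lung amplitudes on the log2 scale differed by −0.16 for Per1 and −0.13 for Per2. The Per1 difference of lung from cerebellum was 0.35 on deposited TPM, 0.39 with genes detected and −0.58 to 0.32 without a replicate number. On deposited TPM, 8 of 15 neighbouring levels passed, and those that reversed were Per1 cerebellum over heart (0.50) and kidney over liver (0.49), Per2 lung over kidney (0.27), kidney over liver (0.67) and cerebellum over muscle (0.26), and Per3 cerebellum over muscle (0.52) and kidney over liver (0.58). Without a replicate number the levels ranged from −0.00072 to 0.14 for Per1 lung over muscle, −0.19 to 0.093 for Per2 kidney over liver, −0.066 to 0.12 for Per2 muscle over heart, −0.069 to 0.042 for Per3 cerebellum over muscle, −0.17 to 0.012 for Per3 kidney over liver and −0.022 to 0.26 for Per3 muscle over heart. Pairs of tissues with different rhythms, 22 of 45, were 12 on deposited TPM and 12 to 16 without a replicate number. The cause of these changes was not tested. Sets in which Per2 peaked after Per1 with an interval above 0, 8 of 12, were 3 without replicate 1, 6 without replicate 2 and 5 without replicate 3. The number of rhythm differences and of tests of the lung against other tissues that passed stayed within 1.5 times the main counts.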
